A study of Mus musculus with 2 samples.

Results

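CD8 T cells of the mouse liver were examined in droplet libraries of liver nonparenchymal cells, the cells that remain in suspension when hepatocytes are pelleted. A barcode, taken as a cell, was counted as a CD8 T cell when it held at least 2 UMIs (unique molecular identifiers, each a captured RNA molecule) of Cd3d, Cd3e and Cd3g together and at least 1 UMI of Cd8a and Cd8b1 together. It had to hold no UMI of Cd4, of the B cell genes Cd79a and Ms4a1 or of the NK cell gene Ncr1. These rules chose 467 cells, 235 from the yap1 library and 232 from the wild-type library, of the 9146 barcodes with at least 500 UMIs and at most 20% mitochondrial UMIs, and of 10000 barcodes in all. The yap1 library came from C57BL/6 mice with floxed Yap1 alleles and Lyz2-Cre, in which Cre is made from the lysozyme 2 locus of myeloid cells. The wild-type library came from C57BL/6 mice labelled wild type. Per the labels each library pooled 3 mice, and all mice had received carbon tetrachloride, a hepatocyte toxin used to bring about fibrosis, 4 times. Lyz2 is a gene of macrophages, monocytes and neutrophils and not of T cells, so the genotype describes the animals the CD8 T cells came from. With 1 library for each genotype, the genotypes are compared by values alone, without a test, and a difference between animals or preparations cannot be told apart from one between genotypes. The 95% intervals given (exact Poisson, binomial or Clopper-Pearson) cover counting error only.

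CD8 T cells recognise peptides on MHC class I through the T cell receptor, with the CD8 alpha and beta chains as coreceptor. Cells that have not met antigen carry the chemokine receptor Ccr7, which lets them enter lymph nodes, and the transcription factors Lef1 and Tcf7. Effector and memory cells make granzymes and perforin, which kill target cells, and secrete interferon gamma and chemokines such as Ccl5. The liver holds recirculating, memory and resident CD8 T cells, and inhibitory receptors such as PD-1 (Pdcd1) appear on cells stimulated for long.

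The CD8 T cells held 2191704 UMIs in the yap1 library and 1602024 in the wild-type library. The median was 8213 UMIs (2018 to 37829) and 2214 genes per yap1 cell, against 6524 UMIs (851 to 18192) and 1941 genes per wild-type cell, and the mitochondrial share had a median of 4.43% in yap1 and 4.71% in wild type. Both libraries shared 5 barcodes, of which 0 were CD8 T cells. A sum over 37 genes of macrophages, neutrophils and sinusoidal endothelial cells, called other-lineage UMIs here, had a median of 4 per CD8 T cell in each library and a highest value of 874 in yap1 and 594 in wild type. At least 20 were held by 19 yap1 cells (8.09%, 4.94 to 12.3%) and by 10 wild-type cells (4.31%, 2.09 to 7.78%). These few cells carried 84.7% of the other-lineage UMIs in yap1 and 64.8% in wild type. Among B cells the share with at least 20 was 6.10% in yap1 and 7.01% in wild type. Results that touch genes of other cells are therefore also given without those cells, a choice made after seeing the data.

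T cell genes that the rule did not use were found in most of the cells. The surface protein Thy1 was found in 92.8% of yap1 and 88.4% of wild-type cells and the kinase Lck in 91.9% of yap1 and 86.2% of wild-type cells. Cd3d, Cd3e and Cd3g, the chains of the CD3 signalling complex, were found in 98.3%, 89.8% and 99.1% of yap1 cells, against 97.4%, 83.6% and 95.3% of wild-type cells. Cd8a was found in 91.9% and Cd8b1 in 91.5% of yap1 cells, against 86.6% and 93.5% of wild-type cells, and both chains together in 196 yap1 and 186 wild-type cells. These CD3 and CD8 shares follow from the rule that chose the cells and are a description. Just inside the limits, 9 yap1 and 12 wild-type cells had a single Cd8 UMI, and 2 yap1 and 3 wild-type cells had 2 Cd3 UMIs. Just outside, 3 yap1 cells and 0 wild-type cells met every other condition with 1 Cd3 UMI. The median cell stood far from the limits, with 11 Cd8 and 14 Cd3 UMIs in yap1 and 8 and 12 in wild type. Of the barcodes with the CD3 and CD8 transcripts, 8 in yap1 and 10 in wild type were left out for a Cd4 UMI, 14 and 18 for a B cell gene, and 2 and 2 for Ncr1. In the annotation of GRCm38 (GENCODE M21), Cd8a (ENSMUSG00000053977) and Cd8b1 (ENSMUSG00000053044) are protein-coding neighbours on chromosome 6, at 71373427 to 71379173 and 71322788 to 71337494, both on the plus strand.

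Ccl5, a chemokine that attracts T cells and monocytes and is known from memory CD8 T cells, was at 0 in some cells and abundant in others. The gene (ENSMUSG00000035042) lies on the minus strand of chromosome 11, at 83525778 to 83530518. It had 0 UMIs in 86 yap1 and 72 wild-type cells and 15 or more in 121 yap1 and 129 wild-type cells, while 17 yap1 and 25 wild-type cells had 1 to 9 and 11 yap1 and 6 wild-type cells 10 to 14. The median cell had 15 Ccl5 UMIs in yap1 and 31 in wild type, and the highest cell 620 in yap1 and 475 in wild type. Cells with 2 or more Ccl5 UMIs, called Ccl5-high, were 145 of 235 in yap1 (61.7%, 55.2 to 67.9%) and 150 of 232 in wild type (64.7%, 58.1 to 70.8%). The remaining Ccl5-low cells numbered 90 in yap1 and 82 in wild type, and only 4 yap1 and 10 wild-type cells had exactly 1 Ccl5 UMI. The recirculation sum, the UMIs of Ccr7 and Lef1 together, was 3 or more in 88.9% of Ccl5-low yap1 cells and 86.6% of Ccl5-low wild-type cells. It was 3 or more in 46.2% (37.9 to 54.7%) of Ccl5-high yap1 cells, against 42.0% (33.998 to 50.3%) of Ccl5-high wild-type cells. The Ccl5-high cells thus held 67 yap1 and 63 wild-type cells with a recirculation sum of at least 3, and 78 yap1 and 87 wild-type cells with less. A sum of 2 or 3, next to the limit, occurred in 20 yap1 and 14 wild-type cells of these. All are ranges along these scores, chosen after seeing the data, and not cell types, and they differ in depth. The median was 11368 UMIs in yap1 and 9136 in wild type for Ccl5-high cells with a sum of at least 3, against 6581.5 in yap1 and 4997 in wild type for those with less, and 8060.5 in yap1 and 6667 in wild type for Ccl5-low cells.

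**Figure D1:**
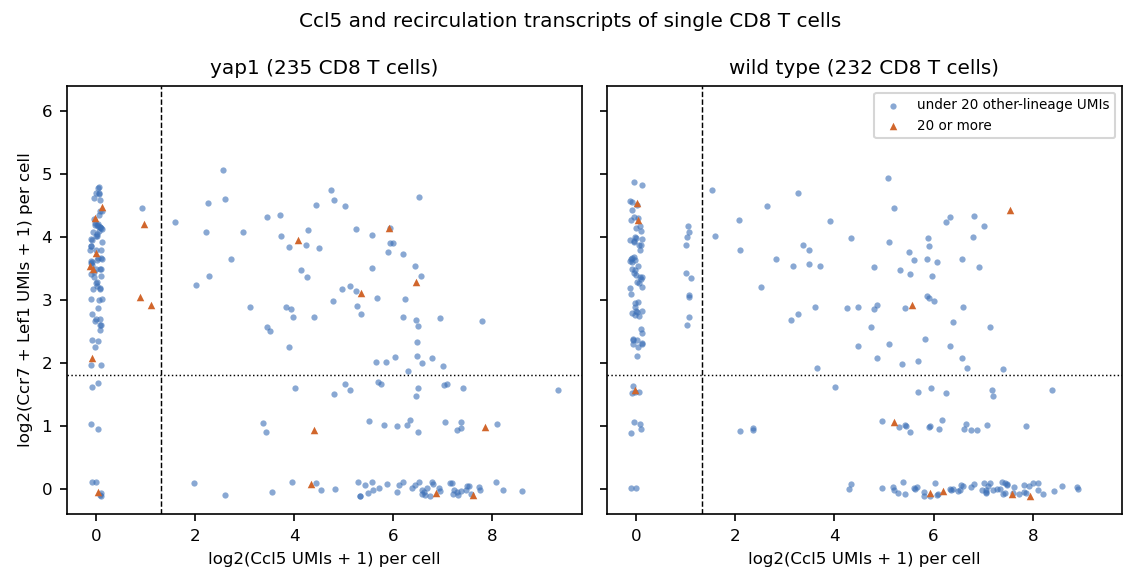
Each point is a CD8 T cell, with log2(Ccl5 UMIs + 1) on the horizontal axis and log2(Ccr7 + Lef1 UMIs + 1) on the vertical axis, slightly jittered, in the yap1 library (left, 235 cells) and the wild-type library (right, 232 cells). The dashed line separates Ccl5-low from Ccl5-high cells at 2 Ccl5 UMIs, the dotted line marks a recirculation sum of 3, and orange triangles are cells with 20 or more other-lineage UMIs. In both libraries Ccl5-low cells lie mostly above the dotted line, and Ccl5-high cells lie on both sides of it.

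Killing and NK receptor genes were concentrated in the Ccl5-high cells. Genes were measured when both ranges together held at least 20 of their UMIs in each library, so a range may hold 0. Of 6269 such genes, 163 (2.6%) were at least 2-fold higher in Ccl5-high than in Ccl5-low cells in both libraries. At least 2-fold lower were 38 (0.606%). Ccl5, which sets this split, was not left out of these counts. The fixed list of granule and killing genes had 11 of 15 members past that limit upward and 0 downward, the memory and effector list 12 of 17 upward, and the recirculation list 8 of 16 downward. Granzyme B (Gzmb), a protease that triggers death of the target cell, stood at 397 CPM (UMIs of the gene per 1000000 UMIs of the pooled cells) in Ccl5-high and 1.27 CPM in Ccl5-low yap1 cells, against 510.5 and 3.64 CPM in wild type. Ifng, which encodes interferon gamma, had a ratio of Ccl5-high over Ccl5-low cells of 21.5 in yap1 and 40.8 in wild type. Klrc1 and Klre1, receptors shared with NK cells, stood at 125 and 108 CPM in Ccl5-high yap1 cells, against 1.27 and 2.54 CPM in Ccl5-low yap1 cells, and at 182 and 119 CPM in Ccl5-high wild-type cells, with 0 UMIs in Ccl5-low wild-type cells. Lower in Ccl5-high cells were Igfbp4, which encodes a binding protein of insulin-like growth factors, with ratios of 0.0918 in yap1 and 0.0741 in wild type, and Ifngr2, the second chain of the interferon gamma receptor, with 0.108 in yap1 and 0.0815 in wild type. Itgae, the integrin alpha chain CD103, was also lower, at 0.198 in yap1 and 0.105 in wild type. It rested on 6 UMIs in Ccl5-high and 17 in Ccl5-low yap1 cells, and on 4 and 20 in wild type. The residency list went mostly the other way, with 5 of 11 members at least 2-fold higher in both libraries and 1 lower. The sum of Ccl5 and Nkg7 at 2 or more, a wider range, took in 86.8% of yap1 and 88.8% of wild-type cells. Between its inside and its outside 251 genes (4%) were at least 2-fold higher and 53 (0.845%) lower in both libraries. Ccl5 and Nkg7, which set this range, were not left out of these counts. Among the lower was Itgae, read over the same cells as before, at 0.147 in yap1 and 0.191 in wild type. The residency list had 3 of 11 members higher and 2 lower.

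Within the Ccl5-high cells, granzymes and inhibitory receptors marked those with a low recirculation sum. Of 5160 genes measured, 220 (4.26%) were at least 2-fold higher and 54 (1.05%) lower in cells with a sum under 3 than in cells with 3 or more, in both libraries. Ccr7 and Lef1, which set this split, were not left out of these counts. Gzma, granzyme A, stood at 996 CPM in cells with a sum under 3 against 9.78 CPM in the others in yap1, and at 1707 CPM against 0 UMIs in wild type, with a ratio of 102 (51.4 to 237) in yap1. Lag3, an inhibitory receptor that binds MHC class II, had ratios of 40.5 (6.71 to 1653) in yap1 and 47.9 (8.10 to 1943) in wild type, with 1 UMI in the cells of higher sum in each. Gzmk, granzyme K, had ratios of 14.6 in yap1 and 23.3 in wild type, and Pdcd1 8.84 in yap1 and 9.76 in wild type. Cd160, a receptor of activated cytotoxic lymphocytes, and Cish, an inhibitor of cytokine signalling, had ratios of 20.6 and 9.42 in yap1, against 7.99 and 18.3 in wild type. The residency list had 6 of 10 members past 2-fold upward, the inhibitory list 5 of 10, the granule list 7 of 15 and the cell cycle list 5 of 14, with 0 downward in each. Satb1, a chromatin organiser of naive T cells, was lower, with ratios of 0.179 in yap1 and 0.140 in wild type, as was the interleukin 6 receptor Il6ra, at 0.140 in yap1 and 0.144 in wild type. Ly6c2, a surface protein that is high on central memory CD8 T cells, followed another order. It stood at 896 CPM in yap1 and 690 CPM in wild type in Ccl5-high cells of lower sum, against 929 and 966 CPM in those of higher sum and 469 and 393 CPM in Ccl5-low cells. The ratio of lower over higher sum had an interval that spans 1 in yap1, at 0.964 (0.861 to 1.08), and was 0.714 (0.621 to 0.821) in wild type. Of its 2733 words of 50 bases, 13.9% also occur in Ly6c1, so its counts may include reads of that gene.

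Granzyme transcripts shared cells. Among Ccl5-high cells with a Gzma UMI, 22 of 30 yap1 cells (73.3%) and 28 of 30 wild-type cells (93.3%) also held Gzmb, against 24.3% of yap1 and 29.2% of wild-type Ccl5-high cells without Gzma. Gzmk was held by 16 yap1 and 23 wild-type cells of the 30 (53.3% and 76.7%), against 27.0% of yap1 and 32.5% of wild-type cells without Gzma. Pdcd1 and Lag3 were found together in 9 of 23 Pdcd1-positive yap1 cells and 19 of 38 wild-type cells, against Lag3 in 7.38% of yap1 and 5.36% of wild-type cells without Pdcd1. Gzmk and Ccr7 rarely met, in 3 of 47 yap1 and 4 of 62 wild-type cells with Gzmk (6.38% and 6.45%), against Ccr7 in 70.4% of yap1 and 70.5% of wild-type cells without Gzmk. Cells with more UMIs have more transcripts of every kind found in them, so these counts also follow depth.

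The promoters of 4 genes that were concentrated in Ccl5-high cells and that hold a match to the letters given below are shown. T-box factors (Tbx21, Eomes) and RUNX factors are known regulators of the CD8 effector program. The 250 bases before the annotated start site are given 5′ to 3′ on the gene's strand, from RefSeq on GRCm38.p6. Capitals mark a match, on either strand, of the RUNX letters TGTGGTT in Gzmb and Gzma, of the T-box letters GGTGTGA in Gzmk and of both in Xcl1.
Gzmb (chr14:56262335-56262584, minus strand): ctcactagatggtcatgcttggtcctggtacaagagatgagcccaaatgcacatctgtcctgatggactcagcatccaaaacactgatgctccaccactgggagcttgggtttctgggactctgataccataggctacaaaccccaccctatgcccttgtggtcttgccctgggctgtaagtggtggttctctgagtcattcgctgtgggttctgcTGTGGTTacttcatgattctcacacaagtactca
Gzma (chr13:113100982-113101231, minus strand): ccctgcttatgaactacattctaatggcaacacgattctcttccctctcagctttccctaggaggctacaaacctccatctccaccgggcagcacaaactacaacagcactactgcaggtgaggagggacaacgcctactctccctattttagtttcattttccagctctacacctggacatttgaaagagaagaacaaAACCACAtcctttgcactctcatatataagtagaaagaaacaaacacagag
Gzmk (chr13:113180966-113181215, minus strand): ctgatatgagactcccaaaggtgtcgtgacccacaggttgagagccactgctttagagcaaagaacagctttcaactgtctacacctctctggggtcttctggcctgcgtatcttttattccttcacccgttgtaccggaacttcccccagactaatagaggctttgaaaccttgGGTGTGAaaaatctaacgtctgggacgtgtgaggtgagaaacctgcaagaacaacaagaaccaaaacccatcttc
Xcl1 (chr1:164935523-164935772, minus strand): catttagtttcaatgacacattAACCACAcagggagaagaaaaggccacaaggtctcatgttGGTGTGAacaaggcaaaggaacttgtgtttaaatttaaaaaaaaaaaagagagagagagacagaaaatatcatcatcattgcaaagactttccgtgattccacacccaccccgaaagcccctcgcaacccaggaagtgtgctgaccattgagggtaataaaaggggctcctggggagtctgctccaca
Counted from the RefSeq start site, the match began at position -34 in Gzmb, -51 in Gzma and -75 in Gzmk, and in Xcl1 the T-box match began at -188 and the RUNX match at -228. GENCODE M21 places some starts elsewhere. Its span of Gzmk (113171608 to 113225908) encloses the window shown, and its span of Gzmb ends at 56262260, short of the window. The positions therefore hold for the RefSeq start sites only. Of 19 genes higher and 11 genes lower in Ccl5-high cells, picked after their values were seen, 16 and 8 had an entry, with 18 and 15 windows. The T-box letters were found for 3 of the 16 and 0 of the 8, the RUNX letters for 4 and 0, and the TCF and LEF letters ATCAAAG for 0 and 0. Ifng and Prf1 were among the higher genes with an entry and none of these letters. Over all 32851 windows of this length, 3.33% held the T-box, 4.40% the RUNX and 3.21% the TCF and LEF letters. These shares count windows, whereas the counts above are of genes with a match in any window. A match describes the sequence and does not show binding.

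Compared with T cells without CD8 transcripts (239 yap1 and 250 wild-type cells), CD8 T cells held more of a short set of genes. These other T cells met the same CD3, B cell and Ncr1 limits, had no Cd8a or Cd8b1 UMI and could hold Cd4. Genes were measured when both classes together held at least 20 of their UMIs in each library. Of 7967 such genes, the genes of the sorting rule left out, 55 (0.69%) were at least 2-fold higher in CD8 T cells in both libraries. At least 2-fold lower were 243 (3.05%). Gzmm, granzyme M, led with 57.5 against 1.305 CPM in yap1 and 54.9 against 1.57 CPM in wild type, ratios of 44.1 (11.9 to 368) and 35.0 (9.41 to 294). Gzma had ratios of 8.38 in yap1 and 8.21 in wild type, the pore former Prf1 5.25 and 6.53, and Ccr7 3.43 and 4.21. Bend4, a gene with a DNA-binding BEN domain, had 15.2 and 10.9. Lower in CD8 T cells were Foxp3, the factor of regulatory T cells (0 UMIs in yap1 and 1 in wild type), the IL-33 receptor Il1rl1 (1 and 0 UMIs), Il4 (2 and 0 UMIs) and the CD40 ligand Cd40lg, with ratios of 0.0507 in yap1 and 0.0413 in wild type. The granule list had 4 of 15 members higher and 0 lower, the recirculation list 3 of 17 higher and 1 lower, and the list of CD4 and regulatory T cells 0 of 6 higher and 6 lower.

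NK cells or type 1 innate lymphoid cells (ILC1), taken as barcodes with Ncr1 and no CD3 or B cell transcript, numbered 35 in yap1 and 53 in wild type. Of 6855 genes, 248 (3.62%) were at least 2-fold higher in CD8 T cells and 354 (5.16%) lower, in both libraries. Ccr7 stood at 569 CPM in CD8 T cells against 4.07 CPM in NK cells or ILC1 in yap1, and at 677 against 5.56 CPM in wild type. Themis, a protein of thymic T cell selection, had 99.5 CPM against 0 UMIs in yap1 and 98.0 against 2.78 CPM in wild type. The granzymes divided between the classes. Gzmk was higher in CD8 T cells, with ratios of 15.01 (2.65 to 597) in yap1 and 43.8 (7.77 to 1740) in wild type on 1 UMI in the NK cells or ILC1 of each library, whereas Gzma stood at 273 CPM in CD8 T cells against 5669 CPM in NK cells or ILC1 in yap1, and at 496 against 3966 CPM in wild type. Gzmc, granzyme C, stood at 0.456 CPM in CD8 T cells against 346 CPM in NK cells or ILC1 in yap1, and at 0.624 against 86.1 CPM in wild type. Klrb1c, the NK1.1 antigen, had ratios of 0.0295 in yap1 and 0.0199 in wild type. Of the granule list 2 of 15 members were higher and 7 lower in CD8 T cells, and of the memory list 2 of 19 higher and 13 lower. B cells were barcodes with at least 2 UMIs of Cd79a and Ms4a1 together and no CD3 or Ncr1 UMI. They numbered 951 in yap1 and 1355 in wild type. As barcodes with CD3 transcripts are left out, a low level of T cell transcripts in this class follows partly from its rule. Of 9611 genes, 579 (6.02%) were at least 2-fold higher and 964 (10%) lower in CD8 T cells in both libraries. The T cell gene Cd6 had 215 UMIs in CD8 T cells and 1 in B cells in yap1, and 211 and 1 in wild type, and the T cell factor Bcl11b 427 and 2 UMIs in yap1 and 348 and 3 in wild type. The receptor signalling list had 16 of 18 members higher and 0 lower.

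**Figure D2:**
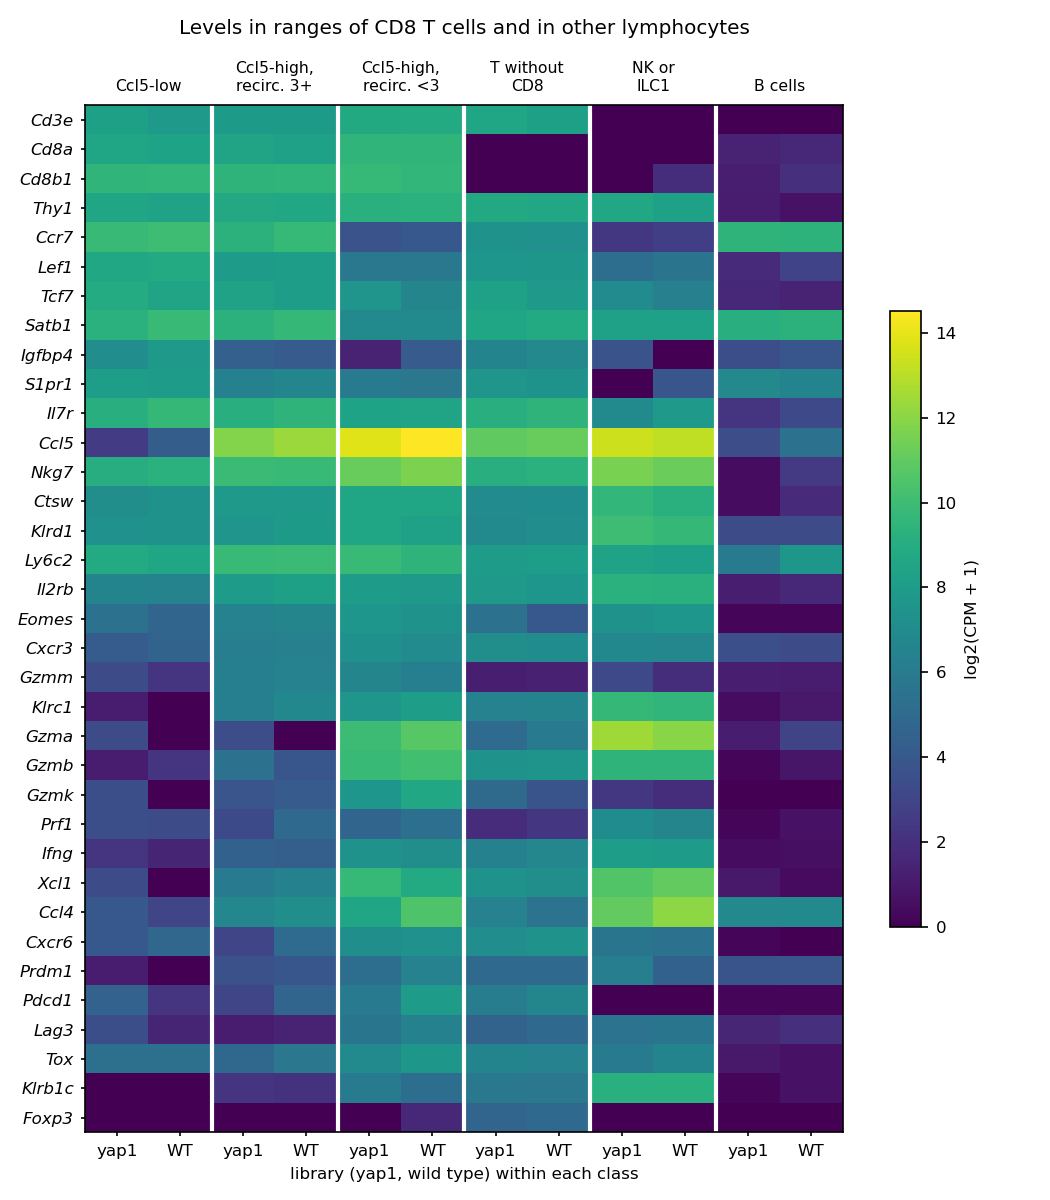
Colour gives log2(CPM + 1) of genes (rows) in the 3 ranges of CD8 T cells and in T cells without CD8 transcripts, NK cells or ILC1 and B cells, with yap1 left of wild type in each class, and recirc. stands for the recirculation sum. Gzma, Gzmb and Gzmk are brightest among the CD8 T cells in Ccl5-high cells with a recirculation sum under 3, where Ccr7, part of that sum, is dark, and Gzmk is dark in NK cells or ILC1.

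Shares of cells with a UMI can include free RNA, so the same genes were also read in B cells (median depth 4459 UMIs in yap1 and 3708 in wild type). The rule for B cells leaves out barcodes with a CD3 or Ncr1 UMI, so shares in them may understate free T cell RNA. Ccl5 was found in 63.4% of yap1 and 69.0% of wild-type CD8 T cells, against 4.42% of yap1 and 4.797% of wild-type B cells. Gzmk was found in 20.9% of yap1 and 26.7% of wild-type CD8 T cells and in 0 of 951 yap1 and 0 of 1355 wild-type B cells, which allows a share of up to 0.387% in yap1 and 0.272% in wild type. Ccl4 was found in 34.9% of yap1 and 36.6% of wild-type CD8 T cells, but also in 9.78% of yap1 and 7.68% of wild-type B cells. Whether the transcripts found in B cells were free RNA or their own was not tested. With each cell thinned to 1000 UMIs, which left out 0 yap1 and 2 wild-type CD8 T cells, Ccl5 was found in 54.0% of yap1 and 59.6% of wild-type cells, Gzmk in 4.26% and 11.3%, Gzmb in 12.8% and 18.7%, and Pdcd1 in 2.98% and 6.96%.

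Between the genotypes, the CD8 T cell share of barcodes was higher in yap1 by less than its counting error. It was 5.53% (4.86 to 6.26%) in yap1 and 4.74% (4.16 to 5.37%) in wild type, a ratio of 1.17 (0.968 to 1.40), and among T cells it was 48.8% in yap1 and 47.2% in wild type. Of 8478 genes with at least 20 UMIs over both libraries, 842 (9.93%) were at least 1.5-fold higher and 571 (6.74%) at least 1.5-fold lower in yap1 CD8 T cells, and the median log2 ratio of all was -0.02. Without the cells holding 20 or more other-lineage UMIs, 586 of 8043 genes (7.29%) were higher and 613 (7.62%) lower. That step took the higher genes from the larger to the smaller number, and genes that macrophages express strongly were among those with the highest ratios in all cells. Apoe, the lipid carrier apolipoprotein E, had 6121 UMIs in yap1 and 1154 in wild type, a ratio of 3.88 that was 1.11 without those cells. Spp1, osteopontin, had 285 UMIs in yap1, 92.6% of them in 5 cells, and 13 in wild type, with a ratio of 16.02 that was 2.54 without those cells. The macrophage list had 16 of 16 genes with a UMI in each library and summed to 2253 CPM in yap1 and 1238 CPM in wild type, or 392 and 440 CPM without those cells. The neutrophil list summed to 459 CPM in yap1 and 291 CPM in wild type, where Cxcr2 and Ltf had 0 UMIs, or 94.3 and 141 CPM without those cells. The endothelial list summed to 103 CPM in yap1 and 104 CPM in wild type, or 15.4 and 29.9 CPM without those cells. The B cell list summed to 863 CPM in yap1 and 897 CPM in wild type, or 132 and 161 CPM without those cells. The hepatocyte list summed to 280 CPM in yap1, where Cyp2e1 had 0 UMIs, and 141 CPM in wild type, or 275 and 120 CPM without those cells, and its part in the comparisons was not tested. Lyz2, the locus that carries Cre, stood at 574 CPM in yap1 and 378 CPM in wild type, a ratio of 1.52 that was 0.349 without those cells, and it was found in 22.1% of yap1 and 28.6% of wild-type B cells. Yap1 itself had 1 UMI in yap1 and 0 in wild-type CD8 T cells, and its relative Wwtr1 (TAZ) 0 and 2, so these cells give no check of the deletion.

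The chemokine transcripts Ccl5 and Ccl4 were lower in yap1 CD8 T cells. Ccl5 stood at 5227 CPM (5132 to 5324) in yap1 and 8730 CPM (8586 to 8876) in wild type, a ratio of 0.599 (0.584 to 0.614), or 0.649 without the cells of many other-lineage UMIs. The lower level held inside each Ccl5-high range, at 3646 CPM in yap1 against 5158 CPM in wild type for a recirculation sum of at least 3, and 14449 CPM in yap1 against 23542 CPM in wild type for a sum under 3. In the other classes the ratio was 0.869 (0.826 to 0.915) in T cells without CD8 transcripts and 1.20 (1.14 to 1.26) in NK cells or ILC1. Ccl4, macrophage inflammatory protein 1 beta, which attracts monocytes and T cells, lies on the same chromosome (ENSMUSG00000018930, chromosome 11, 83662584 to 83664683, plus strand). It had 312 UMIs in yap1 and 768 in wild type, or 142 and 479 CPM, a ratio of 0.297 (0.259 to 0.339), or 0.278 without those cells. The 5 cells with most Ccl4 held 33.97% of it in yap1 and 56.1% in wild type, and without them the ratio was 0.452. Its share of cells was close, at 34.9% in yap1 and 36.6% in wild type, so the levels differed more than the shares. The ratio of Ccl4 was 1.92 (1.40 to 2.66) in T cells without CD8 transcripts and 0.498 (0.450 to 0.551) in NK cells or ILC1. In B cells it was 0.930 (0.832 to 1.04). Ccl3, a close relative of Ccl4 that macrophages also make, had a ratio of 1.24 (0.974 to 1.59) in all cells, 0.501 without the cells of many other-lineage UMIs and 0.710 with each cell weighted equally.

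Among the other cytokines the directions were mixed. Il2, the T cell growth factor interleukin 2, had 16 UMIs in yap1 and 42 in wild type, a ratio of 0.278 (0.146 to 0.506). Ifng stood at 53.8 CPM in yap1 and 49.3 CPM in wild type, a ratio of 1.09 with an interval that spans 1 (0.814 to 1.47). Xcl1, lymphotactin, which attracts cross-presenting dendritic cells, was higher at 257 CPM in yap1 and 165 CPM in wild type, a ratio of 1.55 (1.34 to 1.80). The 5 cells with most Xcl1 held 75.1% of its UMIs in yap1 and 76.6% in wild type. Without them the ratio was 1.67, but with each cell weighted equally it was 0.774, so the direction depends on how cells are weighted. Of the 11 measured members of the cytokine and chemokine list, 3 were past 1.5-fold higher and 3 past 1.5-fold lower, with a median log2 ratio of 0.13, or -0.14 over 9 members without the cells of many other-lineage UMIs. Of all genes measured in all cells, 9.93% were higher and 6.74% lower.

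The granule genes were mostly lower in yap1, 12 of 15 with a ratio under 1. Of the 15 measured members of the list, 0 were past 1.5-fold higher and 5 past 1.5-fold lower, in all cells and without the cells of many other-lineage UMIs, and the median log2 ratio was -0.38 and -0.28, against -0.02 and -0.04 over all genes. Of all genes, 9.93% were higher and 6.74% lower, or 7.29% and 7.62% without those cells. Gzmk (ENSMUSG00000042385, chromosome 13, 113171608 to 113225908, minus strand) had 134 UMIs in yap1 and 195 in wild type, or 61.1 and 122 CPM, a ratio of 0.502 (0.400 to 0.629). Gzma (ENSMUSG00000023132, chromosome 13, 113093825 to 113100981, minus strand) stood at 273 CPM in yap1 and 496 CPM in wild type, a ratio of 0.551 (0.495 to 0.614), although 14.04% of yap1 and 12.9% of wild-type cells held it. The 5 cells with most Gzma held 73.8% of it in yap1 and 45.7% in wild type, and without them the ratio was 0.265. Prf1, perforin, had 30 UMIs in yap1 and 41 in wild type, a ratio of 0.535 (0.322 to 0.878). Serpinb9, which protects the killer cell from its own granzyme B, had a ratio of 0.503 (0.411 to 0.615). Gzmb (ENSMUSG00000015437, chromosome 14, 56258838 to 56262260, minus strand) was closer, at 255 CPM in yap1 and 336 CPM in wild type, a ratio of 0.757 (0.671 to 0.853), or 0.896 without those cells. Gzmm and the protease gene Ctsw had ratios of 1.05 (0.791 to 1.39) and 0.958 (0.840 to 1.09), with intervals that span 1. As the libraries differed in how many cells lay in each range, the granzymes were also read inside the Ccl5-high cells with a recirculation sum under 3. There Gzma stood at 996 CPM in yap1 and 1707 CPM in wild type, Gzmk at 196 and 398 CPM, and Gzmb at 891 and 1137 CPM. In NK cells or ILC1 the ratio of Gzma was 1.43 (1.33 to 1.54), a difference from CD8 T cells that was not tested. In T cells without CD8 transcripts the granule list had 1 of 13 members past 1.5-fold higher and 4 lower, with a median of -0.17. Of all 8293 genes measured there, 633 were higher and 735 lower. In B cells 0 of 7 members were higher and 3 lower, with a median of -0.51, beside 548 and 741 of 10412 genes.

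**Figure D3:**
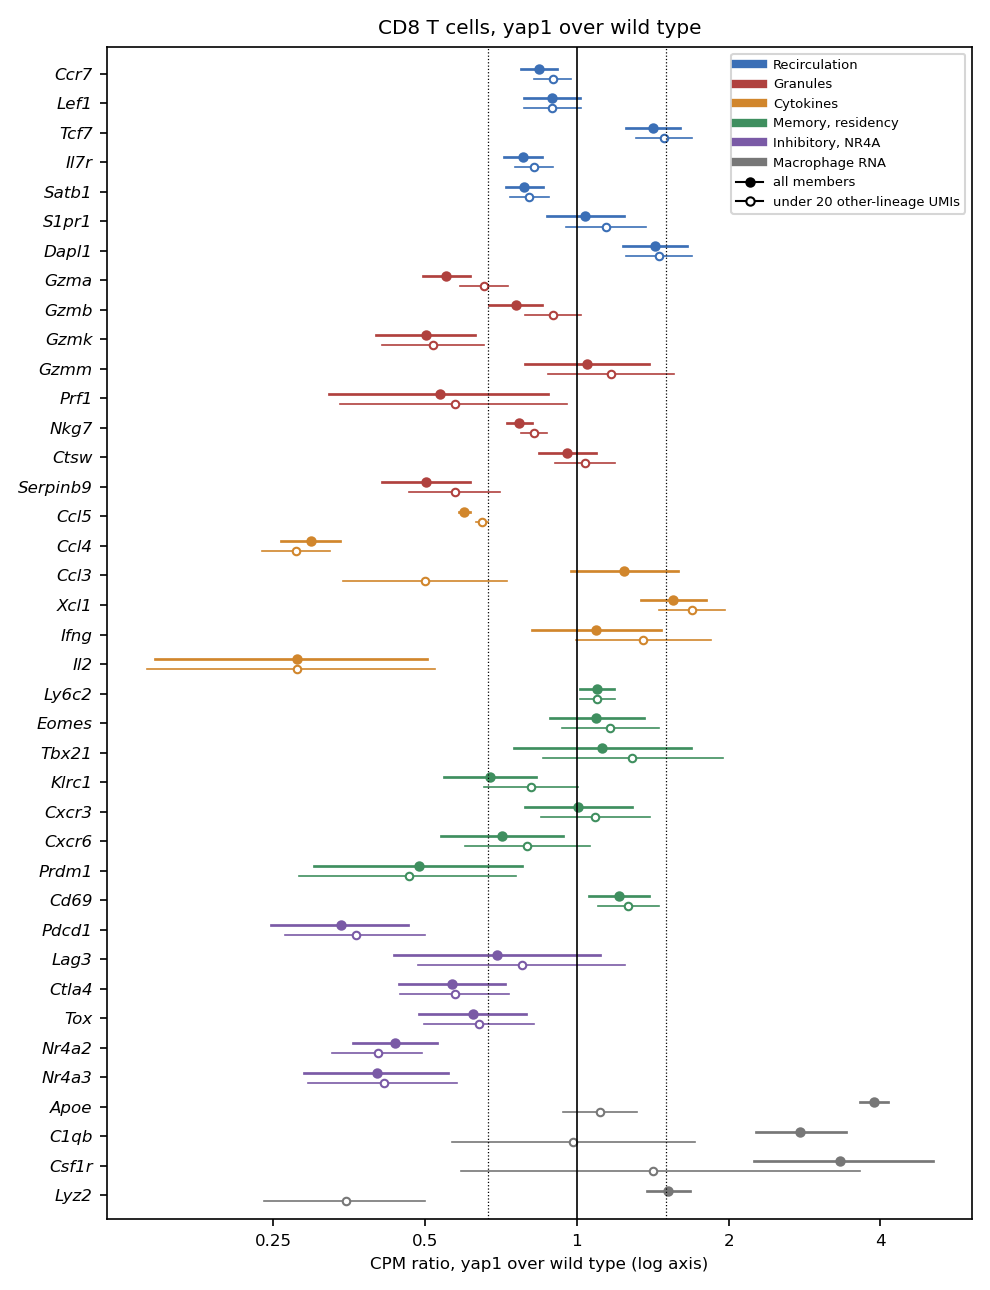
Ratio of CPM, yap1 over wild type, in CD8 T cells on a log axis for genes grouped by role (colours), with 95% counting intervals. Filled points are all cells and open points are cells with under 20 other-lineage UMIs, and dotted lines mark 1.5-fold. Ccl4, Gzmk, Pdcd1, Nr4a2 and Nr4a3 lie left of 1 in both, while Apoe lies at 3.88 in all cells and 1.11 in the others.

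Pdcd1, Ctla4, Tox and Nr4a3, 4 of the 12 measured genes of the inhibitory list, and the related Nr4a2 were also lower in yap1. Pdcd1 (ENSMUSG00000026285, chromosome 1, 94038305 to 94052553, minus strand) had 62 UMIs in yap1 and 133 in wild type, or 28.3 and 83.0 CPM, a ratio of 0.341 (0.248 to 0.464), or 0.365 without the cells of many other-lineage UMIs. It was found in 10.6% of yap1 and 16.8% of wild-type cells. Inside the Ccl5-high cells with a recirculation sum under 3 it stood at 64.8 CPM (45.9 to 89.0) in yap1 and 249 CPM (206 to 299) in wild type. In Ccl5-low cells it had 18 UMIs in yap1 and 2 in wild type, so the direction was the other there. In T cells without CD8 transcripts the ratio of Pdcd1 was 0.720 (0.552 to 0.937). Nr4a2 and Nr4a3, nuclear receptors induced by T cell receptor signals, had ratios of 0.437 (0.360 to 0.529) and 0.402 (0.289 to 0.556). Both were lower in the other lymphocytes too. Nr4a2 had ratios of 0.596 in T cells without CD8 transcripts, 0.561 in NK cells or ILC1 and 0.666 in B cells, and Nr4a3 had 0.485, 0.299 and 0.580 in the same classes. Ctla4, an inhibitory receptor that competes with Cd28, had a ratio of 0.566 (0.444 to 0.721), and Tox, a factor of persistently stimulated T cells, 0.623 (0.488 to 0.795). Lag3 had 38 UMIs in yap1 and 40 in wild type, a ratio of 0.694 (0.434 to 1.11). The inhibitory list had 2 of 12 measured members past 1.5-fold higher and 4 lower, with a median log2 ratio of -0.45, and 1 of 11 higher and 5 lower without the cells of many other-lineage UMIs. Of all genes measured, 9.93% were higher and 6.74% lower, or 7.29% and 7.62% without those cells. In Ccl5-high cells 0 of 11 members of the list were higher and 6 lower, with a median of -0.68, where 9.25% of all genes measured were higher and 9.2% lower. In Ccl5-low cells the list went the other way, with 2 of 8 higher and 1 lower and a median of 0.16, where 13.4% of all genes measured were higher and 9.97% lower. The lower level of the list was not particular to CD8 T cells. In T cells without CD8 transcripts its median was -0.44, with 2 of 13 members higher and 4 lower. Of all 8293 genes measured there, 633 were higher and 735 lower. In B cells its median was -0.36, with 2 of 11 members higher and 4 lower. Of all 10412 genes measured there, 548 were higher and 741 lower.

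Transcription factors of activated CD8 T cells were lower or close to even, and Tcf7 was higher. Of 31 measured factors, 0 were past 1.5-fold higher and 5 past 1.5-fold lower, beside 9.93% and 6.74% of all genes measured. Prdm1 (Blimp-1), which drives terminal effector cells, had 32 UMIs in yap1 and 48 in wild type, a ratio of 0.487 (0.301 to 0.778). Batf, an AP-1 factor of effector cells, had a ratio of 0.553 (0.412 to 0.741), and Stat3, which relays interleukin 6, 10 and 21 signals, 0.605 (0.516 to 0.709). Tbx21 and Eomes, the T-box factors, had ratios of 1.12 (0.753 to 1.69) and 1.09 (0.884 to 1.36). Tcf7, which encodes TCF-1 and marks naive and stem-like memory cells, stood at 348 CPM in yap1 and 246 CPM in wild type, a ratio of 1.42 (1.25 to 1.60), and was found in 83.8% of yap1 and 65.1% of wild-type cells. Thinned to 1000 UMIs it was found in 25.1% of yap1 and 21.7% of wild-type cells. Tcf7 was higher in yap1 T cells without CD8 transcripts as well, with a ratio of 1.40.

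The recirculation genes as a list were even, with 0 of 17 members past 1.5-fold higher and 2 lower and a median log2 ratio of -0.01. For this list and the 2 that follow, 9.93% of all genes measured were higher and 6.74% lower. S1pr1, the receptor that draws cells out of tissue into lymph and blood, had a ratio of 1.04 (0.872 to 1.24), and Ccr7 0.840 (0.774 to 0.912). Il7r, the interleukin 7 receptor, and Satb1 were somewhat lower, at 0.782 (0.718 to 0.852) and 0.787 (0.723 to 0.858). Dapl1, a transcript of naive and memory CD8 T cells, was higher at 1.43 (1.23 to 1.65), and Igfbp4 lower at 0.645 (0.505 to 0.824). The memory and effector list was also even (median -0.01), with 1 of 20 members past 1.5-fold higher and 0 lower. Ly6c2, Cxcr3, a receptor for interferon-induced chemokines, and Il2rb, the shared receptor chain for interleukins 2 and 15, had ratios of 1.10, 1.01 and 0.952. The residency list had 1 of 13 members past 1.5-fold higher and 4 lower (median -0.36). Among its members, Cxcr6, which holds T cells in the liver sinusoids, had a ratio of 0.711 (0.539 to 0.937), and Ahr, the aryl hydrocarbon receptor, had 11 UMIs in yap1 and 24 in wild type. Cd69, which opposes exit from tissue, stood higher at 1.21 (1.06 to 1.39).

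The receptor and signalling genes of the T cell were close to even. Of 18 measured members 0 were past 1.5-fold in either direction, with ratios of 0.985 (0.885 to 1.10) for Lck, 1.05 (0.9505 to 1.15) for Thy1 and 0.870 (0.777 to 0.974) for the adaptor Lat. Cytokine receptor genes had 0 of 25 members past 1.5-fold higher and 1 lower, beside 9.93% and 6.74% of all genes. The median log2 ratio of the list was -0.27. Il4ra, the interleukin 4 receptor, stood at 0.677 (0.577 to 0.794) and Il2rg, the common gamma chain, at 1.32 (1.15 to 1.52), and 27.5% of the 50-base words of Il2rg also occur in Gm20489. Both the genes of MHC class I presentation (16 measured) and those of the actin cytoskeleton (25 measured) had 0 members past 1.5-fold. Hippo pathway genes, the pathway that restrains Yap1, had 0 of 12 measured members past 1.5-fold, and Stk4, the kinase MST1 that T cells need for adhesion and survival, stood at 0.711 (0.608 to 0.832).

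Interferon-stimulated genes had 11 of 27 measured members past 1.5-fold higher and 0 lower in yap1, with a median log2 ratio of 0.38. Of all genes measured, 9.93% were higher and 6.74% lower. Without the cells of many other-lineage UMIs the list had 6 of 26 higher and 1 lower, with a median of 0.04. There 7.29% of all genes were higher and 7.62% lower. Ifit2 and Ifit3, antiviral proteins that bind foreign RNA, had 42 and 66 UMIs in yap1 against 7 and 14 in wild type, ratios of 4.39 (1.95 to 11.6) and 3.45 (1.92 to 6.64). The 5 cells with most Ifit2 and Ifit3 held 59.5% and 69.7% of these UMIs in yap1, and 51.2% of the 50-base words of Ifit3 also occur in Ifit3b. Without those 5 cells in each library the ratio of Ifit3 was 1.84. Immediate early genes had 6 of 19 members higher and 0 lower in all cells, and 0 higher and 1 lower without the cells of many other-lineage UMIs. The innate-like list, with genes shared by NKT and gamma delta T cells, had 6 of 12 members higher and 3 lower (median 0.51), or 4 of 11 higher and 2 lower without those cells (median 0.17). Heat shock chaperones had 0 of 12 higher and 2 lower, and glycolysis genes 2 of 17 higher and 0 lower, beside 9.93% and 6.74% of all genes.

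Cell cycle genes stood differently along the ranges. Over all cells the list had 1 of 22 members past 1.5-fold higher and 4 lower, beside 9.93% and 6.74% of all genes measured. In Ccl5-low cells 0 of 15 were higher and 8 lower, with a median log2 ratio of -0.91, beside 13.4% of all genes measured there higher and 9.97% lower. In Ccl5-high cells with a recirculation sum under 3 it was 7 of 20 higher and 0 lower, with a median of 0.44, beside 10.3% of all genes higher and 11.3% lower. Stmn1, a microtubule regulator of dividing cells, stood at 26.7 CPM in yap1 and 165 CPM in wild type in Ccl5-low cells. Over all CD8 T cells, Stmn1 rested on few cells, with 65.6% of its yap1 and 70.4% of its wild-type UMIs in 5 cells. Mki67, the Ki-67 proliferation antigen, was found in 5.11% of yap1 and 7.76% of wild-type cells, and its level had a ratio of 0.795 (0.522 to 1.21), or 0.436 without the 5 cells with most of it.

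**Figure D4:**
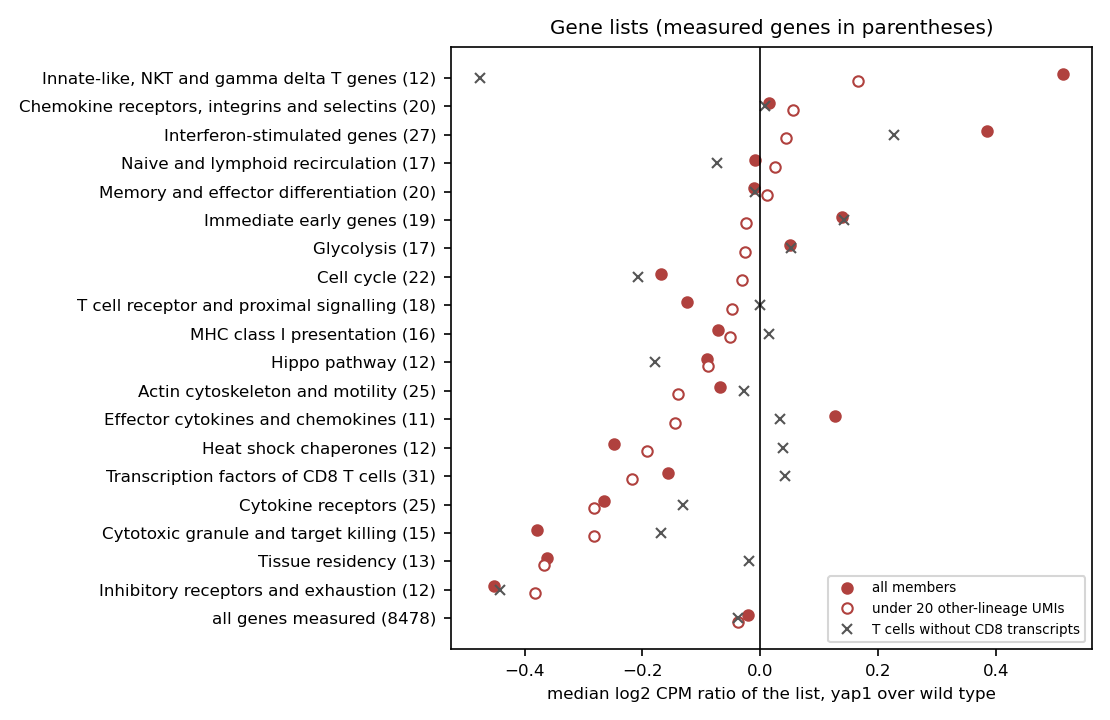
Median log2 CPM ratio, yap1 over wild type, of each gene list (rows, with the number of measured genes; lists of other cell types are not drawn) in all CD8 T cells (filled circles), in those with under 20 other-lineage UMIs (open circles) and in T cells without CD8 transcripts (crosses). Of the lists drawn, the inhibitory, granule and residency lists lie lowest in all CD8 T cells, at -0.45, -0.38 and -0.36, and the interferon list lies at 0.38 in all CD8 T cells and 0.04 in those with under 20 other-lineage UMIs. In T cells without CD8 transcripts the inhibitory list lies at -0.44.

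Some differences were as large in other lymphocytes. Wdr89, a WD repeat protein, stood at 159 CPM in yap1 and 1477 CPM in wild type, a ratio of 0.108, which was 0.107 in T cells without CD8 transcripts, 0.0993 in NK cells or ILC1 and 0.110 in B cells. Nme2, a nucleoside diphosphate kinase, had a ratio of 0.0995 and Lars2, the mitochondrial leucyl tRNA synthetase, 0.481, with 0.0992 and 0.532 in B cells. Of the 50-base words of Wdr89, 8.81% also occur in the ribosomal protein gene Rplp2, and of those of Nme2, 47.0% also occur in Gm20390. Their counts may include reads of those genes. Elovl6, an elongase of fatty acids, differed between the 2 classes of T cells. It had 29 UMIs in yap1 and 79 in wild-type CD8 T cells, a ratio of 0.268 (0.169 to 0.415). In T cells without CD8 transcripts the ratio was 0.930 (0.570 to 1.52). The ratios of 0.999 (0.387 to 2.52) in B cells and 1.26 (0.349 to 4.37) in NK cells or ILC1 had intervals that overlap that of CD8 T cells. Each of these comparisons is between the same pair of libraries, and the differences between classes were not tested.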

How the data were processed

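Whole-number UMI counts per gene (27998 identifiers) and barcode were used as the authors deposited them, for 2 droplet libraries of liver nonparenchymal cells, 1 per genotype. Bowtie 0.12.2, Seurat and the mouse build mm10 are named in the submitters' processing notes without a stated role, and the step that selected barcodes is not described in the labels. Barcodes with at least 500 UMIs and at most 20% mitochondrial UMIs were kept and sorted by the marker counts given in the text. No cell was removed as a doublet: Scrublet's automatic threshold marked 0.141% of yap1 and 0.0817% of wild-type barcodes, too few to be taken as working, so leaving out the highest 4% of scores served as an alternative. UMIs were summed over the cells of a class in each library and divided by their total (CPM). Intervals of levels are exact Poisson, those of ratios come from the exact conditional binomial and those of shares are Clopper-Pearson, all at 95%. Between genotypes, genes needed 20 UMIs over both libraries, and 1.5-fold was the limit for counts of genes. Between classes or ranges they needed 20 UMIs over both together in each library, and 2-fold in both libraries was the limit. Total UMIs were 33696156 in yap1 and 29955049 in wild type over the barcodes kept.

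The members, the 30 gene lists and the comparisons were chosen with earlier results of these data known. The genes named are the rule's markers, the 3 members of each list with the largest ratios (30 UMIs or more) and the 5 with the highest levels, the 12 genes at each end of the genotype ranking (100 UMIs or more) and the 10 at each end of each class ranking. Tbx21, Cxcr6, Mki67, genes named with their levels along the Ccl5 ranges, and the promoters were picked after their values were seen. Promoters come from RefSeq on GRCm38.p6 and positions from GENCODE M21, and the gene overlaps are shared words of 50 bases between transcripts. T cell receptor and immunoglobulin constant genes are not analysed here. Some members of the lists are not reported here and were left out of every list and sum. Ratio and interval calculations were checked on simulated data. The work was done in Python 3.11.15 with scipy 1.17.1, scanpy 1.11.5, numpy 2.4.6, matplotlib 3.10.9 and pandas 2.3.3.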

Additional observations from a re-analysis of the deposited data

Results flagged for a closer look

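Among the named genes with at least 100 UMIs in CD8 T cells and 30 in T cells without CD8 transcripts, 6 were at least 1.5-fold higher in yap1 in one class and at least 1.5-fold lower in the other, with both intervals clear of 1. Part of the named genes were chosen for a large genotype ratio in CD8 T cells. How often all genes differ in this way was not counted, so the 6 are a description and not a rate. Smaller opposite differences, such as that of Apoe with 3.88 in CD8 T cells and 0.903 (0.836 to 0.975) in the other T cells, are not counted. Each class has a single library per genotype, so the difference between the classes was not tested. Ccl4 had a ratio of 0.297 (0.259 to 0.339) in CD8 T cells and 1.92 (1.40 to 2.66) in T cells without CD8 transcripts. In NK cells or ILC1 Ccl4 was lower in yap1 too, at 0.498 (0.450 to 0.551). Gzmk had 0.502 (0.400 to 0.629) in CD8 T cells and 2.496 (1.39 to 4.71) in the other T cells, where it rested on 48 UMIs in yap1 and 16 in wild type. Both stayed below 1 in CD8 T cells without the cells holding 20 or more other-lineage UMIs, at 0.278 for Ccl4 and 0.519 for Gzmk. Hspa1a, an inducible heat shock chaperone, had 0.495 (0.392 to 0.624) in CD8 T cells and 1.77 (1.48 to 2.13) in the other T cells, and 58.8% of its 50-base words also occur in Hspa1b.

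The remaining 3 genes are not T cell genes. C1qb, a complement chain made by macrophages, had 2.77 (2.27 to 3.41) in CD8 T cells and 0.404 (0.321 to 0.506) in the other T cells, and 0.982 in CD8 T cells with under 20 other-lineage UMIs. Csf1r, the macrophage growth factor receptor, had 3.32 (2.24 to 5.08) and 0.551 (0.379 to 0.795), and 1.42 in those cells. Alb, the hepatocyte protein albumin, had 1.62 (1.14 to 2.33) and 0.520 (0.341 to 0.784), and 1.76 in those cells.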

How the results depend on the processing

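No paired analysis was possible because each genotype has 1 library and the labels give no shared replicate numbers, so no result has a replicate left out. The CD8 T cell share had ratios of 1.03 to 1.18 over its alternatives. Depth limits genes with few UMIs, above all after thinning or in small ranges. The cause of the following shifts was not tested. Alternatives with 20 or more other-lineage UMIs or with Ccl5 alone were chosen after seeing the data.

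Genes higher in yap1 numbered 842, but 398 without cells holding 3 or more other-lineage UMIs (held by 175 yap1 and 168 wild-type cells), 161 with cells thinned to 500 UMIs, 328 outside the Ccl5 and Nkg7 range and 369 with at least 50 UMIs asked for. Genes lower numbered 571, but 223 thinned, 322 outside that range and 280 with at least 50 UMIs. Against T cells without CD8 transcripts, 20 genes were higher and 412 lower without cells holding 3 or more other-lineage UMIs, and 396 lower without those holding 20 or more. Against NK cells or ILC1, 89 were higher without cells holding 3 or more.

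Of the 32 genes compared here whose ratio was past 1.5-fold, 11 stood on the other side of 1 in at least 1 alternative, as did the medians of the 3 lists of 6 or more genes past that size. These values follow. Without cells holding 3 or more other-lineage UMIs they were Xcl1 at 0.227, Igfbp4 at 1.06, Stmn1 at 2.68, Hspa1a at 1.27, Alb at 0.268 and the NK cell list at -0.0060. Without those holding 20 or more they were Lyz2 at 0.349, C1qb at 0.982 and the macrophage list at -0.026. Thinned to 500 UMIs they were Serpinb9 at 1.17, Xcl1 at 0.869 and Tox at 1.60. In Ccl5-low cells they were Pdcd1 at 6.29, Ctla4 at 1.28, Tox at 1.02, Alb at 0.370 and the hepatocyte list at -0.25, and in Ccl5-high cells Lyz2 at 0.969. With cells weighted equally Xcl1 stood at 0.774. Without the highest Scrublet scores Alb stood at 0.632 and the hepatocyte list at -0.51, and Alb stood at 0.651 without the 5 cells with most of it. Ccl4, Gzmk and Nr4a3 kept their direction in each alternative that left the gene 20 UMIs, with ratios of 0.0827 to 0.452, 0.274 to 0.519 and 0.268 to 0.439. In Ccl5-low cells, under that number, Ccl4 had 12 UMIs in yap1 and 4 in wild type and Gzmk 8 and 0, the other direction. Values within 1.5-fold crossed more often, 21 of 33 genes (Ccr7 up to 1.12, Mki67 up to 1.41, Cd69 down to 0.732, Ccl3 down to 0.501) and 17 of 20 lists. The median ranged from -1.14 to 0.16 for the inhibitory list, -0.72 to 0.22 for the granule list, -0.69 to -0.18 for the residency list and -0.21 to 0.57 for the interferon list, and the neutrophil list, with 5 genes measured, went to -0.40 without cells holding 20 or more other-lineage UMIs, against 1.33 with them.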
